A study of Cavia porcellus with 34 samples.

Results

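Receptors for serotonin, dopamine, noradrenaline and adrenaline, histamine and acetylcholine were followed in the paraventricular nucleus (PVN) of juvenile guinea pigs whose line had, or had not, been exposed to synthetic glucocorticoid (sGC) before birth. The receptor genes were taken by symbol alone: serotonin receptors HTR1 to HTR7, dopamine receptors DRD, adrenergic receptors ADRA and ADRB, histamine receptors HRH, muscarinic receptors CHRM and subunits of the nicotinic receptors CHRN. Of 12592 genes found in the tables of the 3 generations, 39 were such receptors: 10 for serotonin, 4 for dopamine, 8 adrenergic, 3 for histamine, 5 muscarinic and 9 nicotinic subunits. All 39 were listed and tested in F1. In F2, 38 were listed and 37 tested, since CHRNA2 was not listed and CHRNB3 had a mean under 10. In F3, 38 were listed and 37 tested, since HRH1 was not listed and ADRB1 had a mean under 10.

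Pregnant Dunkin-Hartley guinea pigs (F0) had been injected with 3 courses of the sGC betamethasone or of saline (vehicle, Veh). The animals sequenced were females of the F1, F2 and F3 generations of the paternal line, killed on postnatal day 40, which had received no injection themselves. The groups held 5 animals each in F1 and F2 and 6 each in F3, every animal from a separate litter. Tissue was a punch of the anteromedial hypothalamus that held the PVN and, by the methods of the study, could hold neighbouring hypothalamus, so a receptor level is that of all cells in the punch. In such tissue fewer cells of a type and less RNA per cell cannot be told apart.

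Monoamines and acetylcholine act mostly through receptors coupled to G proteins. The Gs-coupled receptors raise cyclic AMP, the Gi-coupled ones lower it, and the Gq-coupled ones release calcium. Nicotinic receptors are instead ion channels built from subunits. In the PVN, noradrenergic fibres from the brainstem, serotonin fibres from the raphe and histamine fibres from the posterior hypothalamus reach neurons that make corticotropin-releasing hormone, vasopressin and oxytocin, and noradrenaline is a classical drive on the HPA axis.

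Values are the deposited normalized counts, in which unwanted variation had already been removed, so they are not raw reads. Their sum per animal ran from 15573233 to 21935501 in F1, from 15645962 to 19435104 in F2 and from 18692048 to 18977539 in F3. Each table was fitted separately with limma, after adding 1 and taking log2. A fold change is the sGC mean minus the Veh mean on that scale. It can be smaller or larger than the log2 ratio of the mean counts, and the added 1 weighs most on genes with low counts. Adjusted p-values are Benjamini-Hochberg values over all genes tested in that table. Levels were not compared between generations, because the tables were normalized separately, or between genes, because gene lengths were not used.

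Summed levels of cell and region markers differed among animals. The summed normalized count of 8 PVN neuroendocrine marker genes, none of which was at 0 in any animal, was 95979 to 220080 in F1 Veh and 24010 to 194003 in F1 sGC, and all 8 genes were lower in F1 sGC, 5 of them with an unadjusted p under 0.05. In F2 the sum was 62767 to 103886 in Veh and 86446 to 177802 in sGC, and all 8 were higher, again 5 with an unadjusted p under 0.05. In F3 it was 18063 to 58291 in Veh and 24703 to 43017 in sGC. The summed thalamic markers were 27384 in the F1 Veh animal SGM15 and 8812 to 13459 in the other F1 Veh animals, against 7157 to 10564 in F1 sGC, and 4 of the 6 genes were lower in sGC with an unadjusted p under 0.05. The summed suprachiasmatic and anterior hypothalamic markers were 1756 to 3299 in F1 Veh and 3065 to 5412 in F1 sGC. Of these 5 genes, 4 were higher in F1 sGC, 3 with an unadjusted p and 2 with a limma adjusted p under 0.05. In F2 all 8 oligodendrocyte markers were lower in sGC with an unadjusted p under 0.05, and their sum was 128558 to 231049 in Veh and 68042 to 109283 in sGC. The part of these differences in the receptor values was not tested, except where a value without an animal is given.

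No receptor gene passed an adjusted p of 0.05 with limma in F1, F2 or F3, where 0.657%, 0% and 0.0506% of all genes tested did. At an unadjusted p under 0.05 there were 11 of 39 receptors in F1, 5 of 37 in F2 and 4 of 37 in F3, against 13.6%, 11.7% and 13.1% of all genes tested. As deposited, the F1 count was 28.2% of the receptors, while the F2 and F3 counts were 13.5% and 10.8%, near the share over all genes. With size factors or equal totals the F1 receptors did not stand above all genes. There 9 of 39 were higher and 3 lower, while 3912 and 3861 of 11874 genes had an unadjusted p under 0.05. The F3 count rose when the second sequencing batch was set apart, as given at the end. In F1, 8 of the 11 were higher in sGC (ADRA2A, ADRB1, Chrm5, CHRNA3, CHRNB4, HTR1A, HTR1B and Htr4) and 3 were lower (CHRNA5, HRH3 and HTR7), beside 12.1% of all genes higher and 1.46% lower at that p. In F2, 1 was higher (ADRA1A) and 4 were lower (ADRA2B, CHRNA4 and HRH1 among them), beside 2.49% and 9.17% of all genes. In F3, 1 was higher (CHRM1) and 3 were lower (ADRA1D, ADRA2A and CHRNA5), beside 6.19% and 6.92% of all genes.

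Because the sums per animal differed, the split of directions depended on scaling in F1 and F2. With size factors, the receptors at an unadjusted p under 0.05 were 9 higher and 3 lower in F1, where all genes split into 16% higher and 17% lower, and 2 higher and 2 lower in F2, where all genes split into 6.82% and 6.01%. Over all tested receptors, 26 were higher and 13 lower in F1 as deposited and 21 and 18 with size factors. In F2 these counts were 11 and 26 as deposited and 17 and 20 with size factors, and in F3 they were 20 and 17 both ways. As deposited, 66.7%, 29.7% and 54.1% of the receptors were higher in F1, F2 and F3, near the 63.8%, 24.5% and 49% of all genes tested. With size factors 4 receptors passed the adjusted p in F1 with limma, namely ADRB1, CHRNA5, HRH3 and HTR7, where 17.3% of all genes passed. ADRB1 is in these counts although it reached the mean needed for testing in F1 only through its sGC animals. Groups did not overlap for CHRNA5 and CHRNB4 in F1, ADRB1 left aside, beside 2.04% of all genes, for 1 receptor in F2, beside 2.4%, and for 0 in F3, beside 1.21%. The receptors had a median log2 fold change of 0.08 (F1), -0.10 (F2) and 0.01 (F3), beside 0.07, -0.08 and -0.00 over all genes.

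**Figure D1:**
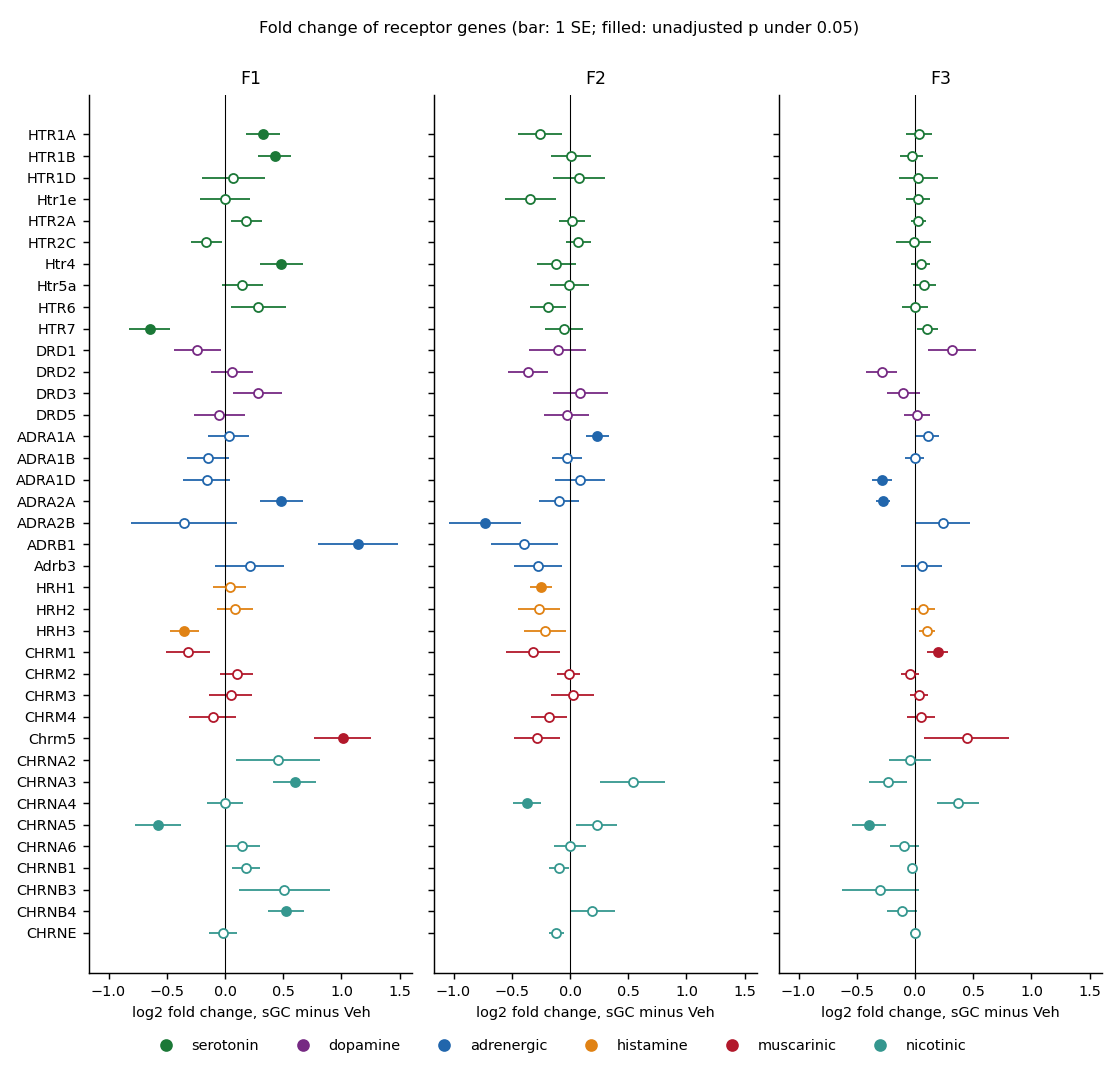
Log2 fold change (sGC minus Veh, horizontal axis) of 38 of the 39 receptor genes, where tested, with 1 SE, in F1, F2 and F3, coloured by transmitter, with filled points where the unadjusted p was under 0.05. Filled points number 11 in F1, 4 in F2 and 4 in F3, and the F1 values reach from -0.65 (HTR7) to 1.14 (ADRB1).

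Among the serotonin receptors, the F1 animals differed in 4 of 10 genes at an unadjusted p under 0.05, beside 13.6% of all genes. With size factors 3 were higher and 1 lower, where 3912 of 11874 genes had such a p. No serotonin receptor did so in F2 or F3, beside 11.7% and 13.1% of all genes. HTR7, a Gs-coupled receptor, was the serotonin receptor with the largest fold change in F1. Its normalized count was 309, 388, 339, 523 and 276 in the Veh animals and 250, 297, 241, 176 and 196 in the sGC animals. Of the sGC values, 4 lay under every Veh value, and the value of 297 lay inside the Veh range. The means were 367 ± 96.4 (SD, n = 5) and 232 ± 47.6 (n = 5), with a log2 fold change of -0.65 (SE 0.17) and a limma adjusted p of 0.0848. The highest Veh value, 523, came from the animal SGM15 with the high thalamic markers, and without that animal the fold change was -0.51 with a limma adjusted p of 0.295.

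HTR1B and HTR1A are Gi-coupled receptors that serve as terminal and cell-body autoreceptors on serotonin neurons and are also found on other neurons. In F1, HTR1B was 1396, 1435, 1261, 923 and 1323 in Veh and 1792, 1908, 2036, 1403 and 1384 in sGC, a log2 fold change of 0.43 (SE 0.14, limma adjusted p = 0.155). All 5 sGC values were above the Veh mean, and 3 were above every Veh value. HTR1A in F1 was 494, 663, 481, 426 and 437 in Veh and 641, 743, 673, 462 and 616 in sGC, with a log2 fold change of 0.33 (SE 0.15) and a limma adjusted p of 0.329. The 2 groups overlapped through the Veh value of 663 and the sGC value of 462. HTR1A kept an unadjusted p under 0.05 in 9 of 19 alternatives, and lost it without the sGC animal SGM8 (0.26, limma adjusted p = 0.580) and with quantile normalization.

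Htr4, another Gs-coupled receptor, was 133, 148, 122, 85 and 122 in F1 Veh and 172, 162, 210, 194 and 119 in F1 sGC. Its log2 fold change was 0.48 (SE 0.18, limma adjusted p = 0.234), and 4 of 5 sGC values were above every Veh value. Without the Veh animal SGM15, which held the lowest value of 85, the fold change was 0.36 (limma adjusted p = 0.508) and no longer had an unadjusted p under 0.05. In F2 and F3 these serotonin receptors showed small differences: the log2 fold changes were -0.05 and 0.11 for HTR7, 0.01 and -0.03 for HTR1B, -0.26 and 0.04 for HTR1A, and -0.12 and 0.05 for Htr4, none with an unadjusted p under 0.05.

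The Gq-coupled receptors HTR2A and HTR2C did not pass either threshold. HTR2C, a receptor through which serotonin acts on hypothalamic neurons, was 2643 ± 127 in F1 Veh and 2406 ± 495 in F1 sGC, where the sGC animals SGM4 (1871) and SGM20 (1859) lay below all others and the remaining 3 were between 2734 and 2784. Its log2 fold changes were -0.16, 0.07 and -0.01 in F1, F2 and F3. HTR2A had log2 fold changes of 0.18, 0.02 and 0.03, with means of 879 ± 200 and 983 ± 70.1 in F1 Veh and sGC. Htr1e had the largest fold change of the class in F2, -0.34 (SE 0.22), with 60, 54, 58, 48 and 87 in Veh and 70, 55, 43, 34 and 42 in sGC, values that overlapped. Htr1e was close to 0 on the log2 scale in F1 (0.00) and F3 (0.03), and Htr5a was at 0.15, -0.01 and 0.08. HTR6 stood at 0.28, -0.19 and 0.00, and HTR1D at 0.07, 0.08 and 0.03. In F3 the fold changes of the 10 serotonin receptors lay between -0.03 and 0.11, a narrower range than in F1, where they lay between -0.65 and 0.48. All genes also varied less in F3, with a median within-group SD of 0.083 on the log2 scale against 0.21 in F1. The 2 tables were normalized separately, and the part of this in the narrower range was not tested.

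**Figure D2:**
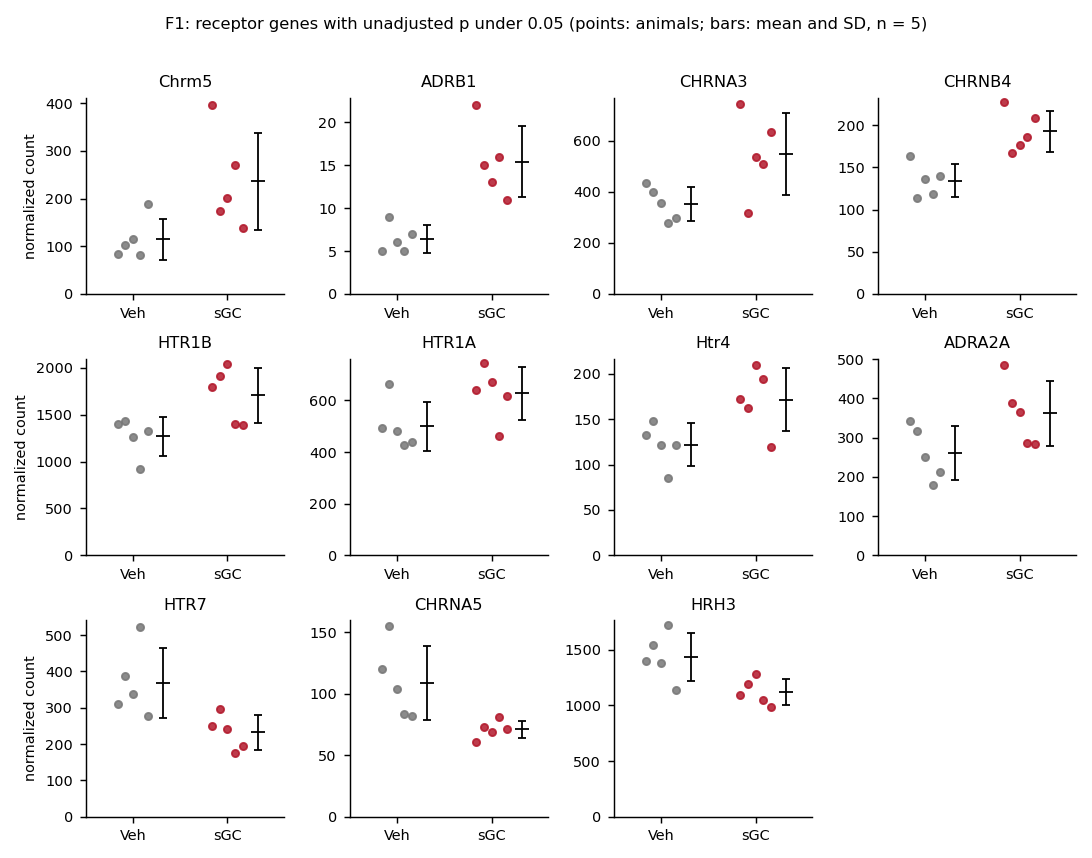
Normalized count (vertical axis, from 0) of each F1 animal, with the mean and SD (n = 5), for the 11 receptor genes with an unadjusted p under 0.05. The Veh and sGC points are apart for ADRB1, CHRNB4 and CHRNA5 and overlap for the others.

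The 4 dopamine receptors gave no unadjusted p under 0.05 in F1, F2 or F3. DRD2, a Gi-coupled receptor, had the lowest p-values of the class in F2 and F3. It was 764, 469, 756, 617 and 897 in F2 Veh and 720, 542, 545, 446 and 454 in F2 sGC, a log2 fold change of -0.36 (SE 0.17, limma adjusted p = 0.438). In F3 DRD2 ran from 631 to 903 in Veh (median 716.5) and from 422 to 872 in sGC (median 568.5), a log2 fold change of -0.29 (SE 0.14, limma adjusted p = 0.385), and in F1 it was 0.06. Both groups overlapped in each generation. Within the first F3 sequencing batch (6 Veh and 4 sGC) the DRD2 fold change was -0.40, with an unadjusted p under 0.05 and a limma adjusted p of 0.335. DRD1, a Gs-coupled receptor, had the largest fold change of the class in F3, 0.32 (SE 0.20), from 113 to 226 in Veh (median 166.5) and from 132 to 342 in sGC (median 207.5). It was -0.24 in F1 and -0.11 in F2. DRD3 had the largest in F1, 0.28 (SE 0.21), with 87, 131, 85, 81 and 70 in Veh and 96, 142, 78, 96 and 143 in sGC, and was 0.09 in F2 and -0.10 in F3. DRD5 was at -0.05, -0.03 and 0.01.

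Of the adrenergic receptors, ADRA2A gave the lowest p of all receptors in F3 and lay on the opposite side in F1. ADRA2A is a Gi-coupled receptor that restrains noradrenaline release and also acts on target neurons. In F3 it ran from 341 to 418 in Veh (median 372.5) and from 280 to 344 in sGC (median 307.5). All 6 sGC values were under the Veh mean, and 5 of 6 were under every Veh value. The means were 373 ± 29.6 (n = 6) and 307 ± 22.3 (n = 6), with a log2 fold change of -0.28 (SE 0.06) and a limma adjusted p of 0.0824.

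In F1 ADRA2A was 343, 316, 251, 179 and 213 in Veh and 485, 388, 365, 286 and 284 in sGC. All 5 sGC values were above the Veh mean, and 3 were above every Veh value. The log2 fold change was 0.48 (SE 0.18, limma adjusted p = 0.227), and without the Veh animal SGM15, which held the lowest value, it was 0.36 (limma adjusted p = 0.507) and no longer had an unadjusted p under 0.05. In F2 it was 415, 338, 408, 290 and 435 in Veh and 465, 402, 406, 258 and 267 in sGC, a log2 fold change of -0.09 (SE 0.17) with wide overlap.

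The alpha-1 receptors are Gq-coupled, and ADRA1A and ADRA1B are thought to carry noradrenergic excitation in the hypothalamus. ADRA1A was 1251, 1284, 1510, 1556 and 1419 in F2 Veh and 1868, 1533, 1359, 1707 and 1821 in F2 sGC. Of the sGC values, 3 were above every Veh value and 2 were inside the Veh range. The log2 fold change was 0.23 (SE 0.10, limma adjusted p = 0.394), and it was 0.03 in F1 and 0.11 in F3. ADRA1D ran from 70 to 88 in F3 Veh (median 84.5) and from 59 to 81 in F3 sGC (median 66.5), and 5 of 6 sGC values were under every Veh value. Its F3 log2 fold change was -0.28 (SE 0.09, limma adjusted p = 0.203), beside -0.16 in F1 and 0.09 in F2. ADRA1B was at -0.15, -0.03 and -0.00.

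ADRB1, a Gs-coupled receptor, had the largest fold change of any receptor in F1 at a very low level. It was 5, 9, 6, 5 and 7 in Veh and 22, 15, 13, 16 and 11 in sGC, so the groups did not overlap. Its log2 fold change was 1.14 (SE 0.34, limma adjusted p = 0.119). ADRB1 reached the mean of 10 needed for testing only through its sGC animals, since its Veh mean was 6.4, and its separation carries no weight as a count. It was 12, 9, 17, 19 and 17 in F2 Veh and 12, 12, 15, 7 and 9 in F2 sGC, a log2 fold change of -0.39 (SE 0.29). In F3 it ran from 4 to 10 in Veh (median 8) and from 8 to 14 in sGC (median 9.5) and was not tested.

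ADRA2B, a Gi-coupled receptor, was 40, 64, 35, 76 and 45 in F2 Veh and 14, 29, 38, 31 and 47 in F2 sGC, with a log2 fold change of -0.73 (SE 0.31, limma adjusted p = 0.394). It kept an unadjusted p under 0.05 in 10 of 18 alternatives, and in none of the 3 scalings. ADRA2B was also the receptor that varied most among animals of a group in F1 and F2. In F1 it was 23, 33, 27, 93 and 14 in Veh and 95, 22, 17, 16 and 13 in sGC, and the 2 values above 90 came from SGM15 (Veh) and SGM4 (sGC). Adrb3 was at 0.21, -0.27 and 0.06.

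The 3 histamine receptors were all lower in F2 sGC, as deposited and with each of the 3 scalings tried, where 75.5% of all genes were lower as deposited, and 1 of them had an unadjusted p under 0.05. HRH1, a Gq-coupled receptor through which histamine excites hypothalamic neurons, was 330, 303, 312, 327 and 313 in F2 Veh and 232, 277, 276, 251 and 300 in F2 sGC. The groups did not overlap, but the nearest values were 303 and 300. HRH1 had a log2 fold change of -0.25 (SE 0.09, limma adjusted p = 0.331). Its unadjusted p was no longer under 0.05 with size factors (-0.18), with equal totals (-0.17) or without the sGC animal SGM21 (-0.20). HRH1 was at 0.04 in F1. In RefSeq it overlaps the protein-coding gene Atg7, which had a log2 fold change of -0.07 in F2.

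HRH3, a Gi-coupled receptor that inhibits histamine release and the release of other transmitters, was 1400, 1538, 1382, 1725 and 1134 in F1 Veh and 1094, 1195, 1285, 1047 and 982 in F1 sGC. All 5 sGC values were under the Veh mean, and 3 were under every Veh value. This gave a log2 fold change of -0.35 (SE 0.13, limma adjusted p = 0.203). As for HTR7, the highest Veh value belonged to SGM15, and without that animal the fold change was -0.28 with a limma adjusted p of 0.459. In F2 HRH3 was 958, 1830, 1322, 2227 and 1620 in Veh and 1355, 1132, 1408, 1272 and 1450 in sGC, a log2 fold change of -0.21 (SE 0.18), with the sGC values inside the wide Veh range. In F3 the log2 fold change was 0.11 (SE 0.07), from 1199 to 1453 in Veh (median 1336) and from 1271 to 1691 in sGC (median 1376). HRH2, which is Gs-coupled, was at 0.08 in F1, -0.26 in F2 and 0.07 in F3. Its F2 values were 182, 222, 247, 354 and 335 in Veh and 282, 200, 197, 195 and 218 in sGC.

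**Figure D3:**
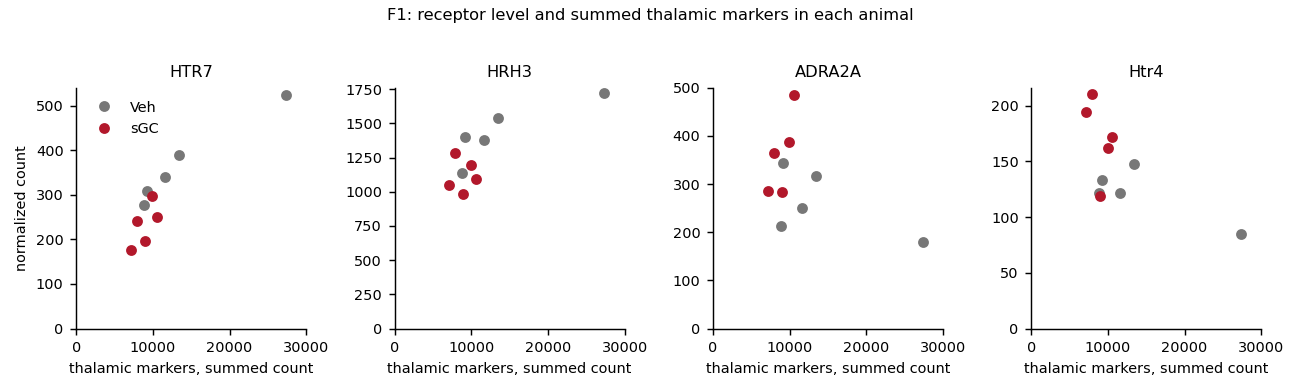
Normalized count of HTR7, HRH3, ADRA2A and Htr4 (vertical axes, from 0) against the summed normalized count of 6 thalamic marker genes (horizontal axis) in each F1 animal. The Veh animal SGM15, at 27384, lies far to the right, with the highest HTR7 and HRH3 values and the lowest ADRA2A and Htr4 values.

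The Veh animal SGM15 held the highest F1 value for 6 of 39 receptors, ADRA1B, CHRM3, CHRNA2, DRD1, HRH3 and HTR7, and the lowest for 10, among them ADRA2A, Chrm5, CHRNA3, HTR1A, HTR1B and Htr4. In F2 the Veh animal SGM28, whose thalamic sum of 23244 was the highest of that generation, was highest for 8 receptors, among them HRH3, CHRM3 and DRD1, but the Veh animal SGM29, with the lowest F2 thalamic sum (8409), was highest for 10. In F3 the sGC animal SGM10, whose thalamic sum of 15224 stood above the range of 8149 to 12324 of the other animals, was highest for 11 receptors, among them Chrm5, CHRNA4, DRD1 and HTR1D. The F1 sGC animal SGM20, with a thalamic sum of 8983, and the F2 sGC animal SGM24, with 16548, were each lowest for 12 receptors. The sum of all values was the lowest of F1 sGC in SGM20 (16231218) and the lowest of F2 in SGM24 (15645962). It was 15959347 in SGM15 and 15573233, the lowest of F1, in the Veh animal SGM19, which was lowest for 8 receptors. The F2 Veh animal SGM22, at 18747125, was lowest for 9. The part of the thalamic markers or of the sums per animal in these values was not tested.

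The F1 sGC animal SGM4 was highest for 12 receptors, among them ADRA2A, ADRB1, Chrm5, CHRNA3 and CHRNB4. Its summed markers of vascular smooth muscle and pericytes were 12680, against 2824 to 5904 in the other F1 animals, and its microglia markers 6797, against 3109 to 4780. LUM, the 1 fibroblast and leptomeningeal marker listed, was 748 in SGM4 and 144 to 306 in the others. Its PVN neuroendocrine sum of 24010 was the lowest of F1. Without SGM4 the log2 fold changes were 0.37 for ADRA2A, 1.01 for ADRB1, 0.80 for Chrm5, 0.47 for CHRNA3 and 0.46 for CHRNB4. Each still had an unadjusted p under 0.05, with the limit given for ADRB1 above. In all, 12 receptors had one, 7 higher and 5 lower, beside 1010 of 11874 genes higher and 144 lower.

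Of the muscarinic receptors, Chrm5 differed most in F1. Chrm5 is a Gq-coupled receptor known from midbrain dopamine neurons. It was 84, 102, 115, 82 and 188 in F1 Veh and 395, 173, 202, 271 and 138 in F1 sGC. All 5 sGC values were above the Veh mean, 3 were above every Veh value, and the Veh value of 188 and the sGC values of 138 and 173 overlapped. The means were 114 ± 43.4 and 236 ± 102 (n = 5 each), with a log2 fold change of 1.01 (SE 0.25) and a limma adjusted p of 0.0569. This was the lowest adjusted p of any receptor in F1, F2 or F3, and it passed 0.05 in 5 of 19 alternatives, with a range from 0.0208 to 0.189.

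Chrm5 did not keep this direction in F2, where it was 115, 106, 100, 118 and 186 in Veh and 114, 107, 131, 73 and 86 in sGC, a log2 fold change of -0.28 (SE 0.20). In F3 it varied more among animals of a group than any other receptor, from 111 to 326 in Veh (median 210) and from 121 to 698 in sGC (median 291.5), a log2 fold change of 0.45 (SE 0.36). The value of 698 belonged to SGM10. In RefSeq Chrm5 overlaps the protein-coding gene Aven, and no step of the library preparation is stated to mark strand. AVEN itself was 651 ± 122 in F1 Veh and 721 ± 41.3 in F1 sGC, a log2 fold change of 0.17 (SE 0.13).

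CHRM1, a Gq-coupled receptor of forebrain neurons, was the muscarinic receptor with an unadjusted p under 0.05 in F3. It ran from 352 to 435 in Veh (median 369) and from 374 to 531 in sGC (median 416), and 3 of 6 sGC values were above every Veh value. Its log2 fold change was 0.20 (SE 0.09, limma adjusted p = 0.381). It kept an unadjusted p under 0.05 in 13 of 23 alternatives. Among others it lost it with totals made equal and without the sGC animal SGM6 (limma unadjusted p = 0.126). In F1 and F2 CHRM1 was at -0.32 and -0.32, with 241, 455, 360, 673 and 589 in F2 Veh and 443, 332, 342, 277 and 369 in F2 sGC. CHRM3, also Gq-coupled, was at 0.05, 0.02 and 0.03. The Gi-coupled CHRM2 and CHRM4 were at 0.10, -0.01 and -0.04, and at -0.11, -0.18 and 0.05. CHRM4 overlaps Mdk in RefSeq.

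Nicotinic subunits gave the other receptors whose groups were apart in F1. CHRNB4, CHRNA3 and CHRNA5 are consecutive genes in RefSeq, and their products are known to assemble together in ganglionic and habenular receptors. In F1 CHRNB4 was 163, 114, 136, 118 and 140 in Veh and 227, 167, 177, 186 and 208 in sGC, a log2 fold change of 0.52 (SE 0.16, limma adjusted p = 0.123). The lowest sGC value, 167, was above the highest Veh value, 163. CHRNA5 in F1 was 120, 155, 104, 84 and 82 in Veh and 61, 73, 69, 81 and 71 in sGC, a log2 fold change of -0.58 (SE 0.20, limma adjusted p = 0.171). Here the highest sGC value, 81, was under the lowest Veh value, 82.

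CHRNA3, which lies between them, was 436, 401, 355, 280 and 296 in F1 Veh and 746, 317, 537, 508 and 635 in F1 sGC. All sGC animals but SGM8, with 317, were above every Veh value. The log2 fold change was 0.60 (SE 0.18, limma adjusted p = 0.130). In F1 the neighbours thus stood on both sides, with CHRNA3 and CHRNB4 higher and CHRNA5 lower.

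In F2 the same 3 genes had unadjusted p-values over 0.05. CHRNA3 was 486, 218, 385, 167 and 293 in Veh and 494, 408, 654, 334 and 293 in sGC, a log2 fold change of 0.54 (SE 0.28, limma adjusted p = 0.478). CHRNA5 was at 0.23 and CHRNB4 at 0.19. In F3 CHRNA5 ran from 98 to 189 in Veh (median 128.5) and from 71 to 116 in sGC (median 98), a log2 fold change of -0.39 (SE 0.15, limma adjusted p = 0.276). All 6 sGC values were under the F3 Veh mean, with 3 inside the Veh range. CHRNA3 and CHRNB4 were at -0.23 and -0.11 in F3.

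**Figure D4:**
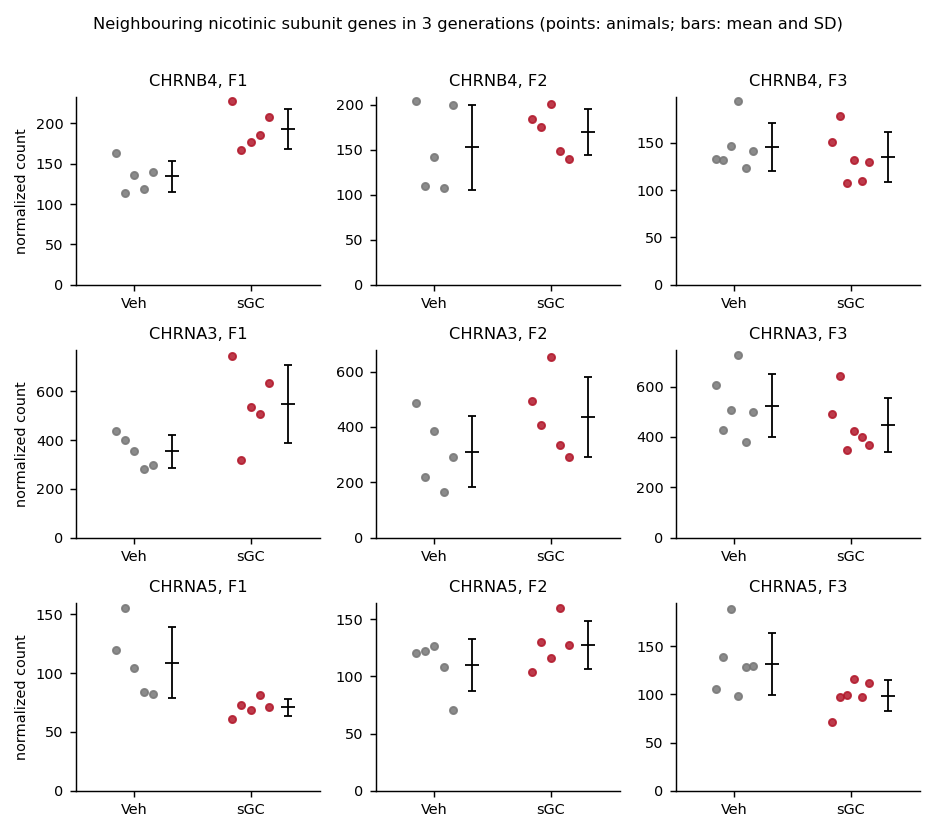
Normalized count (vertical axes, from 0) of CHRNB4, CHRNA3 and CHRNA5 in each animal of F1, F2 and F3, with the mean and SD (n = 5, 5 and 6 a group). In F1 the sGC points of CHRNB4 lie above and those of CHRNA5 below all Veh points, and in F2 and F3 the points overlap.

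CHRNA4, a subunit of the main high-affinity nicotinic receptor of the brain, was 638, 463, 612, 579 and 491 in F2 Veh and 346, 400, 451, 441 and 515 in F2 sGC. All sGC values but 515 were under every Veh value. At a log2 fold change of -0.37 (SE 0.12, limma adjusted p = 0.266) it had the lowest adjusted p of the F2 receptors. In F3 CHRNA4 lay on the other side, from 280 to 508 in Veh (median 387) and from 367 to 829 in sGC (median 460.5), a log2 fold change of 0.37 (SE 0.18, limma adjusted p = 0.413), and the value of 829 belonged to SGM10. In F1 it was at -0.00. In F3, 8 of 9 nicotinic subunits had a log2 fold change under 0, CHRNA4 being the exception, with each of the 3 scalings too. Over all F3 genes 51% were lower as deposited. Only CHRNA5 had an unadjusted p under 0.05. CHRNA2 (-0.04) and CHRNE (-0.004) lay close to 0 and changed sign in 4 of 22 and 5 of 23 alternatives. The first F3 batch alone gave 7 of 9.

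The remaining subunits had unadjusted p-values over 0.05. CHRNA6, a subunit known from catecholamine neurons, was at 0.15, -0.00 and -0.09. Its neighbour CHRNB3 was low, with means of 9.6 ± 5.94 and 12.2 ± 1.30 in F1 Veh and sGC, and like ADRB1 it reached the F1 mean needed for testing through its sGC animals. Its log2 fold change was 0.51 (SE 0.39) in F1 and -0.30 (SE 0.33) in F3. CHRNA2 was at 0.46 (SE 0.36) in F1 and -0.04 in F3. CHRNB1 and CHRNE, known as subunits of the muscle receptor, were at 0.18, -0.10 and -0.02 and at -0.02, -0.12 and -0.00. CHRNE overlaps Gp1ba in RefSeq, whose assembly is not that of the counts, so its values are uncertain to an extent that was not tested. CHRNE varied least among animals in F1 and F2.

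The fold changes of the generations were set against each other in a joined limma fit, with adjustment over all genes shared by both tables. ADRA2A and HTR7 differed between F1 and F3, 2 of 37 receptors, beside 3.63% of all genes at an adjusted p under 0.05. The ADRA2A difference (F1 minus F3) was 0.76 (SE 0.20, limma adjusted p = 0.0320), from 0.48 in F1 and -0.28 in F3. Every F1 sGC animal was above its Veh mean and every F3 sGC animal was below its own. The HTR7 difference was -0.75 (SE 0.20, limma adjusted p = 0.0348), from -0.65 in F1 and 0.11 in F3, where HTR7 ran from 197 to 296 in Veh (median 267) and from 246 to 310 in sGC (median 280). Neither held through the removal of each animal: the adjusted p of ADRA2A rose to at most 0.0616 and that of HTR7 to at most 0.0664, both without the F1 Veh animal SGM15. Of 24 alternatives, ADRA2A passed in 15 and HTR7 in 14. HRH3 (-0.46), CHRNB4 (0.64) and CHRNA3 (0.83) had limma adjusted p-values of 0.0535, 0.0608 and 0.0732 for the same difference. At an unadjusted p under 0.05 there were 8 of 37 receptors, beside 19% of all genes.

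**Figure D5:**
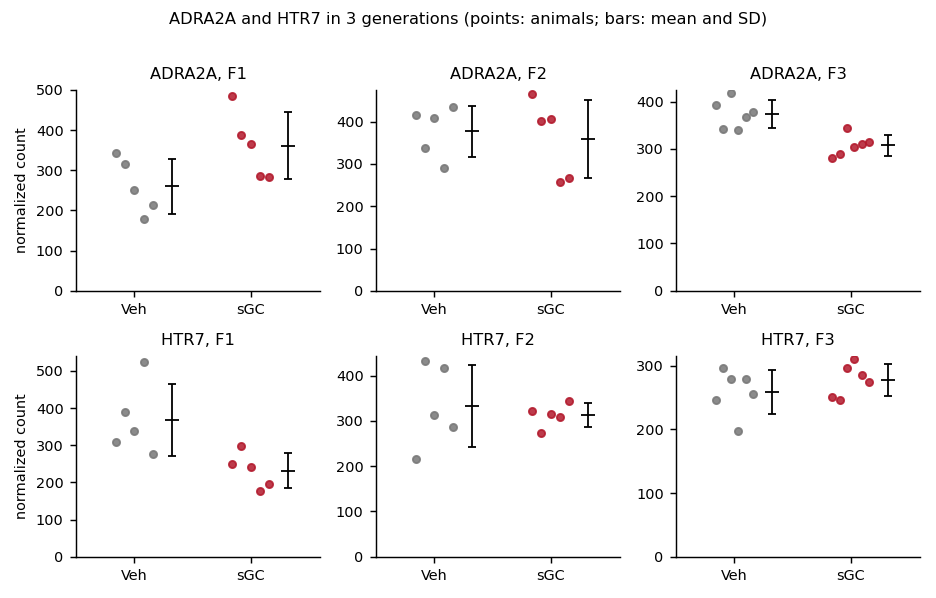
Normalized count (vertical axes, from 0) of ADRA2A and HTR7 in each animal of F1, F2 and F3, with the mean and SD (n = 5, 5 and 6 a group). For ADRA2A the sGC points lie mostly above the Veh points in F1 and mostly below them in F3, and for HTR7 they lie mostly below in F1 and overlap in F2 and F3.

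Between F1 and F2, which shares its F1 animals with the comparison just given, no receptor passed an adjusted p of 0.05 with limma, beside 1.37% of all genes, and 8 of 37 had an unadjusted p under 0.05, beside 16.4%. The differences with the lowest adjusted p were those of ADRB1 (1.53, limma adjusted p = 0.0543), Chrm5 (1.29, 0.0761) and CHRNA5 (-0.81, 0.118). With size factors ADRB1 and CHRNA5 passed, at 1.41 and -0.94. The ADRB1 values rest on an F1 fit that the gene entered only through its sGC animals, so they carry no weight. Between F2 and F3 no receptor passed with limma, beside 1.52% of all genes, and 4 of 35 had an unadjusted p under 0.05, beside 16.7%. CHRNA4 came closest, at -0.74 (limma adjusted p = 0.123).

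Of the 35 receptors tested in all 3 generations, 4 had a log2 fold change above 0 in each (ADRA1A, CHRM3, HTR1D and HTR2A) and 2 below 0 in each (ADRA1B and CHRNE). The shares were 11.4% and 5.71%, beside 6.13% and 11% of all genes, and the total of 17.1% was close to the 17.2% of all genes. Of these, ADRA1A in F2 alone had an unadjusted p under 0.05. No receptor had an unadjusted p under 0.05 with the same sign in each generation. CHRNA5 had it in F1 and F3, both times lower in sGC, and ADRA2A had it in F1 and F3 with opposite signs.

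The median receptor varied more among animals of a group than the median gene, without matching for level. The part of level in this was not tested. The median within-group SD on the log2 scale was 0.31 for receptors against 0.21 for all genes (F1), 0.30 against 0.16 (F2) and 0.21 against 0.083 (F3). ADRA2B had the widest SD of the F1 receptors (1.05) and CHRNE the narrowest (0.16).

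Genes that work with the receptors were counted from 4 lists. No gene of the lists passed an adjusted p of 0.05 with limma in F1, F2 or F3. At an unadjusted p under 0.05, the lists as deposited are to be read beside the 13.6%, 11.7% and 13.1% of all genes. With size factors the shares of all genes were 16% higher and 17% lower in F1 and 6.82% and 6.01% in F2. In F1, 1964 of 11874 genes were higher and 1897 lower with equal totals, and 1715 and 2237 with quantile normalization. Of the genes for transmitter synthesis, storage, uptake and breakdown, 3 of 22 had an unadjusted p under 0.05 in F1, all higher, 3 of 21 in F2 (1 higher and 2 lower) and 6 of 19 in F3 (3 higher and 3 lower). With size factors the F1 count was 1 higher and 4 lower and the F2 count 2 higher and 1 lower. The lowest p was that of SLC44A1, a choline transporter, in F1 (1410 ± 82.2 in Veh and 1966 ± 683 in sGC, log2 fold change 0.42, limma adjusted p = 0.253). SLC44A1 was also lowest in F2, in the other direction (2312 ± 367 and 1598 ± 190, log2 fold change -0.53, limma adjusted p = 0.0655), where the oligodendrocyte markers were lower too. In F1 all 7 oligodendrocyte markers tested were higher in sGC, 1 of them with an unadjusted p under 0.05. Their F1 sum was 38495 to 48307 in Veh and 37654 to 103611 in sGC. The part of these markers in the SLC44A1 values was not tested. In F3 the lowest p was that of SPR, which makes the cofactor of tyrosine and tryptophan hydroxylases (744 ± 30.4 and 681 ± 14.0, log2 fold change -0.13, limma adjusted p = 0.138).

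Among 32 G protein subunits, effectors and regulators, 4 had an unadjusted p under 0.05 in F1 (3 higher and 1 lower), 2 in F2 (both higher) and 8 in F3 (1 higher and 7 lower). With size factors there were 5 higher and 7 lower in F1, where all genes split into 16% and 17%. In F2 there were 4 higher, beside 6.82% of all genes. The F1 balance thus depended on the scaling. GNAQ, the alpha subunit to which the alpha-1, H1 and odd-numbered muscarinic receptors couple, led in F1 with 810 ± 167 in Veh and 1168 ± 103 in sGC, a log2 fold change of 0.55 (SE 0.14, limma adjusted p = 0.0612). GNA14, of the same Gq family, led in F2 with a log2 fold change of 0.92 (SE 0.36, limma adjusted p = 0.357). RGS7, which speeds the shut-off of Gi and Go proteins, led in F3 with 836 to 887 in Veh and 922 to 939 in sGC, so that the groups did not overlap, at a log2 fold change of 0.11 (SE 0.02, limma adjusted p = 0.0797).

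Of 8 genes of receptor desensitization, 2 had an unadjusted p under 0.05 in F1 (both higher), 1 in F2 (lower) and none in F3. With each of the 3 scalings the F1 count was 4 higher and 2 lower, GPRASP1 and GRK4 being the lower ones. The shares of all F1 genes were larger with those scalings too, as given above. GRK5, a kinase that phosphorylates active receptors, led in F1 with 962 ± 98.5 in Veh and 1256 ± 171 in sGC (log2 fold change 0.38, limma adjusted p = 0.148) and in F2 with 1144 ± 110 and 992 ± 93.2 (log2 fold change -0.20, limma adjusted p = 0.400). In F3 GRK6 had the lowest p, at -0.08 (limma adjusted p = 0.382). Of the genes for assembly and modulation of nicotinic receptors, none of 6 had an unadjusted p under 0.05 in F1 or F2, where RAPSN (0.84) and NPTN (-0.14) led, although NPTN and TMEM35 were lower at that p in F1 with each of the 3 scalings, and 1 of 5 did in F3, LYPD1, at 0.14 (SE 0.05, limma adjusted p = 0.220), with 3141 ± 269 in Veh and 3462 ± 113 in sGC.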

How the data were processed

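RNA from PVN punches was sequenced by the authors (TruSeq V2 libraries, not stated to mark strand), aligned to cavPor3, counted per gene, corrected between F3 batches and normalized by residuals with RUVSeq. TopHat2 and edgeR are named in the submitters' processing notes. The deposited normalized counts are rounded to whole numbers and were treated as a score without fixed range. From the singular values, 1, 1 and 2 directions had been removed in F1, F2 and F3. The authors' own comparison columns, holding log2 fold changes, log2 mean levels, test scores, dispersions and p-values from edgeR, were not used.

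Genes with a table mean of 10 or more were fitted, generation by generation and without scaling, by limma 3.58.1 (R 4.3.3) with a pseudocount of 1 on the log2 scale and a mean-variance trend. Tests were two-sided, and p-values were adjusted by Benjamini-Hochberg with 0.05 as the threshold. The procedure was tested on simulated data. Alternatives were 3 scalings, pseudocounts of 0.5 and 5, a mean of 50 or none, eBayes without trend, the removed directions as covariates, the F3 batch (6 Veh and 4 sGC first, 2 sGC second) and each animal left out. Members and lists were chosen with earlier results of these data known. Named with values were receptors with an adjusted or unadjusted p under 0.05 or without overlap, with a mean of at least 50 in all tables, or with the largest fold change of their class, and the list gene with the lowest p. 1 receptor, included in the counts, is not reported here by itself. RefSeq gave gene neighbours for 39 of 39 receptors. It has another assembly (mCavPor4.1), so no coordinates are given. The 2 re-sequenced F3 Veh libraries were not analysed here. The values are not reads, so no counting interval is given, and precision rests on the number of animals.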

Additional observations from a re-analysis of the deposited data

Results flagged for a closer look

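Values of single animals stood apart from their group by Dixon's criterion in 15 of 226 groups examined, where chance gives about 11.3. In F1 these were the sGC animal SGM8 for ADRA1B (215, others 164 to 175), SGM4 for ADRA2B (95, others 13 to 22), SGM20 for Adrb3 (19, others 52 to 62) and for CHRNE (678, others 827 to 891), and the Veh animal SGM15 for Htr1e (47, others 66 to 75). In F2 they were the Veh animal SGM29 for Chrm5 (186, others 100 to 118) and for CHRNA5 (71, others 108 to 127), and the sGC animal SGM24 for DRD3 (45, others 90 to 107). In F3 they were the Veh animal SGM17 for ADRA2B (24, others 9 to 13) and HTR1D (31, others 43 to 51), the sGC animal SGM2 for CHRNA6 (438, others 637 to 731), and the sGC animal SGM10 for CHRNA5 (71, others 97 to 116), HRH2 (165, others 202 to 223), HTR1D (75, others 37 to 46) and Htr1e (95, others 68 to 74). SGM10 thus accounts for 4 of the 15, and it was also the F3 animal with the highest summed thalamic markers (15224). The part of those markers in its values was not tested.

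The sGC effect on 2 of 37 receptors differed between F1 and F3 in the joined limma fit, beside 3.63% of all genes. Neither passed without the F1 Veh animal SGM15, and of 24 alternatives ADRA2A passed in 15 and HTR7 in 14. The difference was 0.76 for ADRA2A (limma adjusted p = 0.0320), where all 5 F1 sGC animals were above and all 6 F3 sGC animals below their Veh mean, and -0.75 for HTR7 (limma adjusted p = 0.0348).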

How the results depend on the processing

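The count of F1 receptors with an adjusted p under 0.05 (0 with limma as deposited) was 4 with size factors, beside 17.3% of genes. It was 6 with equal sample totals (ADRB1, CHRNA5, HRH3, HTR1B, Htr4 and HTR7), beside 16.4% of all genes. With quantile normalization it was 4, beside 2084 of 11874 genes. It was 1 with a mean of at least 50 (Chrm5), beside 102 of 11048 genes. With eBayes without trend it was 1 (ADRB1), beside 30 of 11874 genes. With an animal left out it was 0 to 2, beside 15 to 473 of 11874 genes. These were ADRB1 without Veh SGM7, Chrm5 without Veh SGM19 or sGC SGM12 or SGM20, and Chrm5 and CHRNA3 without sGC SGM8. ADRB1 entered the F1 fit only through its sGC animals, so its passes carry no weight. The adjusted counts of F2 and F3 were 0 in every alternative. The unadjusted count of F1 (11) was 9 to 13 with an animal left out, beside 1115 to 2820 of 11874 genes. That of F2 (5) was 3 with equal totals, beside 1458 of 11965 genes. It was 3 with a mean of at least 50, beside 1300 of 11111 genes. With an animal left out the F2 count was 2 to 7, beside 912 to 1722 of 11965 genes. It was 3 without sGC SGM21 (1643 genes) and 2 without sGC SGM24 (1052 genes). That of F3 (4) was 9 within the first batch and 9 with batch as a covariate (5 higher and 4 lower, adding CHRNA4, Chrm5, DRD1, DRD2 and HRH3). Of 11866 genes, 1151 and 1206 had an unadjusted p under 0.05 in these settings. With an animal left out the F3 count was 3 to 8, and 8 without sGC SGM_21, beside 1296 genes. Both second-batch animals are sGC, so with the covariate the first-batch animals alone give the fold change. The batch settings are therefore not separate checks.

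With an animal left out, 0 to 2 receptors had a difference of effects for F1 minus F2, beside 0 to 577 of 11612 genes. These were ADRB1 without F1 Veh SGM7, F2 Veh SGM23 or F2 sGC SGM30, and ADRB1 and Chrm5 without F1 sGC SGM20. With size factors there were 2, beside 516 genes. The ADRB1 passes carry no weight, as given above. For F1 minus F3 the count was 0 to 5, beside 176 to 1776 of 11539 genes. For F2 minus F3 it was 0 to 1 (CHRM1 without F2 Veh SGM22), beside 81 to 411 of 11638 genes. For F1 minus F3 none passed without F1 Veh SGM11 or SGM15, F3 Veh SGM13, or F3 sGC SGM6 or SGM_21, ADRA2A alone passed without F1 sGC SGM16, F3 Veh SGM5 or SGM1, or F3 sGC SGM2 or SGM_22, HTR7 alone without F3 Veh SGM9, 4 without F3 sGC SGM18 and 5 without F1 Veh SGM7. With an animal left out, medians were 0.04 to 0.15 in F1, -0.14 to -0.07 in F2 and -0.01 to 0.03 in F3, and in F1 the median was -0.01 with quantile normalization. No receptor with an unadjusted p under 0.05 changed sign in any alternative, and 8 of 11, 1 of 5 and 3 of 4 stayed under 0.05 with each animal left out in F1, F2 and F3. The cause of these shifts was not tested. The number of animals limits what can be seen, and low receptors such as ADRB1 and CHRNB3 rest on few counts.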

Other observations

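Genes that make or carry the ligands of these receptors were looked at after their values were seen. HDC, which makes histamine, was 344 ± 165 in F1 Veh and 567 ± 332 in F1 sGC (log2 fold change 0.64, limma adjusted p = 0.355), and 296 ± 58.5 and 414 ± 117 in F2 (0.46, limma adjusted p = 0.349). The groups overlapped in both, at 221 to 622 against 298 to 975 in F1 and 231 to 372 against 304 to 612 in F2. TH, the rate-limiting enzyme of catecholamine synthesis, was 579 ± 177 in F3 Veh and 901 ± 331 in F3 sGC (0.63, limma adjusted p = 0.298). In F2 TH ran from 387 to 3450 in Veh and from 649 to 974 in sGC (-0.80). SLC6A3, the dopamine transporter, ran from 9 to 41 in F3 Veh and from 24 to 94 in F3 sGC (0.98, limma adjusted p = 0.238). SLC18A2, the vesicular monoamine transporter, was 1444 ± 286 and 1753 ± 158 in F1 (0.30, limma adjusted p = 0.315), and 1787 ± 108 and 1616 ± 105 in F3 (-0.15, limma adjusted p = 0.218).

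Gp1ba, which overlaps CHRNE in RefSeq, was 2718 ± 397 in F1 Veh and 2565 ± 230 in F1 sGC, but 9.2 ± 2.77 and 10.4 ± 3.65 in F2 and 106 ± 16.2 and 96.7 ± 6.74 in F3, while CHRNE was 840 ± 86.6, 877 ± 40.4 and 709 ± 17.1 in the Veh animals of F1, F2 and F3. The tables were normalized separately, and the part of read assignment in these levels was not tested.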
